A study of Mus musculus with 9 samples.

Results

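The gp130 and Stat3 signalling genes of a mouse immunology probe panel were described across 9 libraries of ileal epithelial cells. They were selected by gene name, namely the transcription factor Stat3, the receptor chains Il6st and Il6ra, the ligands Il6 and Lif, and the inhibitor Socs3. These are 6 of the 561 endogenous and housekeeping genes on the panel. All libraries came from male mice of the non-obese diabetic (NOD) strain, which develops autoimmune diabetes spontaneously, at postnatal day 23. Control mice made up 3 libraries, mice labelled 1PAT antibiotics another 3, and mice given cecal material the last 3. The labels name neither the antibiotic nor the donors of the cecal material, and they do not state whether the transfer mice had antibiotics beforehand, although the series title describes a rescue. They also do not say whether each library is 1 animal or a pool, so the p-values cover library-to-library spread alone, which may be technical.

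Cytokines of the interleukin-6 family signal through a shared receptor chain, gp130, which Il6st encodes. Il6ra encodes the chain that binds interleukin-6 before gp130 joins, while leukaemia inhibitory factor, encoded by Lif, uses gp130 with another receptor chain. Ligand binding activates Janus kinases bound to the receptor, these phosphorylate Stat3, and Stat3 dimers enter the nucleus and switch on target genes. Socs3 is a direct target whose protein binds gp130 and the kinases and shuts the signal down. In the gut this pathway is known for epithelial repair and survival after injury and for the response of the epithelium to interleukin-22, which reaches Stat3 through other receptors.

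Counts over the panel ran from 323129 to 747434 per library, and 470 genes exceeded a background limit in at least 3 libraries and were tested. That limit, the mean of a library's negative-control probes plus 2 SD, lay between 7.74 and 17.7 counts. Levels are given as CPM, counts scaled to a common library total, after TMM scaling, which sets libraries against the panel as a whole. Control replicate 3 stood apart, at -27.5 on the leading principal component against -7.26 to 11.7 in the other libraries. It had the lowest summed T cell markers of all 9 libraries and the highest summed epithelial markers. Of the 10 epithelial markers listed, 4 were on the panel, and Epcam, Cdh1 and Vil1 were not among them. Pigr, the antibody transporter of epithelium, lay between 29168 and 70079 CPM. Pigr, Ccl25 and Il18 exceeded the limit in all 9 libraries and Defb1 in 3, so some markers of the labelled cell type were present. T cell markers were also detected in every library, with Cd3e between 3523 and 23379 CPM.

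Stat3 was measured far above the limit in all 9 libraries and was the member with the smallest p-value for antibiotic against control. In control replicates 1 to 3 it measured 1603, 1473 and 1729 CPM, in the antibiotic libraries 608, 925 and 446 CPM, and in the transfer libraries 783, 1251 and 705 CPM. Each antibiotic and each transfer library was below the lowest control library, while the antibiotic and transfer ranges overlapped. The control libraries were close to each other, at 1602 ± 128 CPM, whereas the antibiotic libraries averaged 659.7 ± 243 CPM and the transfer libraries 913 ± 295 CPM (SD, n = 3). The antibiotic level of Stat3 was thus 2.43-fold lower than the control level, or -1.28 ± 0.37 (SE) on the log2 scale, with a 95% interval from -2.07 to -0.49. It did not pass edgeR's quasi-likelihood test at an adjusted p under 0.05 (adjusted p = 0.080, unadjusted p = 0.00382, rank 21 of 470 genes). For transfer against control the log2 fold change was -0.81 ± 0.36 (SE; adjusted p = 0.214), with an interval from -1.59 to -0.03. Transfer lay above antibiotic by 0.47 ± 0.36 on the log2 scale (SE; adjusted p = 0.993), with an interval from -0.31 to 1.26 that includes 0.

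**Figure D1:**
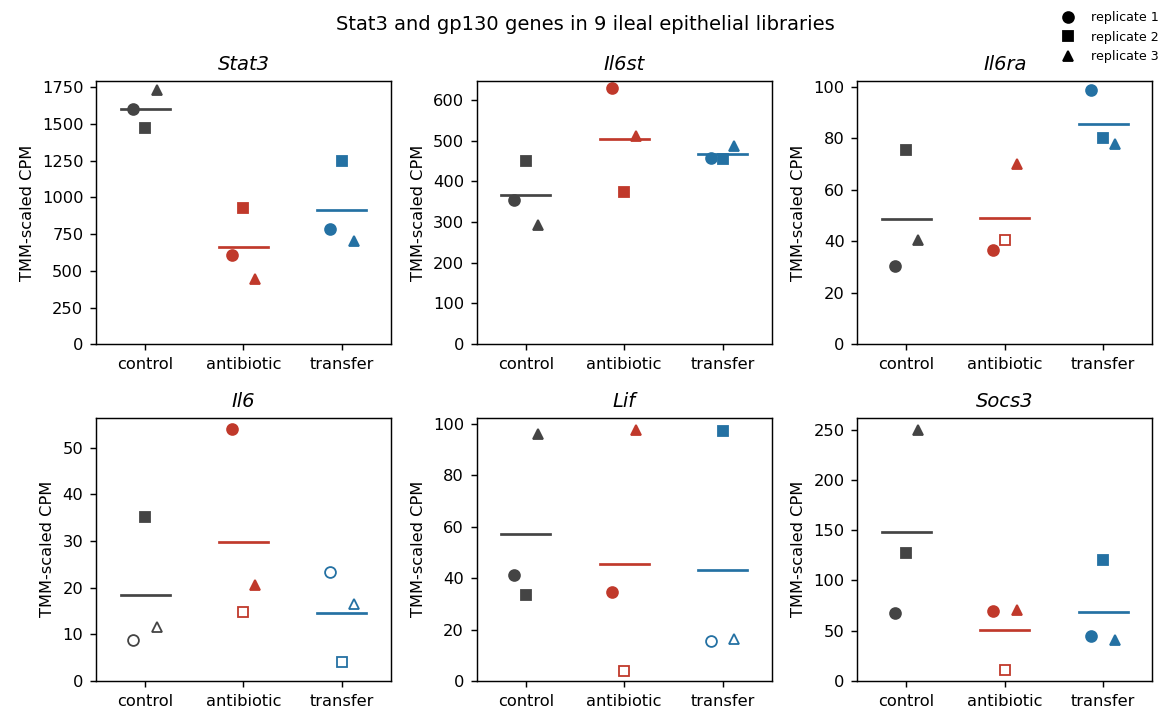
TMM-scaled CPM (vertical axes, from 0) of the 6 members in 3 control, 3 antibiotic and 3 transfer libraries; marker shapes give the replicate number, horizontal lines the group means, and open markers counts at or below the background limit of the library. The 3 control libraries hold Stat3 between 1473 and 1729 CPM, above all 6 others, while Il6 exceeds the limit in 3 of 9 libraries.

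Of the 6 members, 0 passed in antibiotic against control, as did 0 of all genes tested (0%), with edgeR. At an unadjusted p under 0.05, Stat3 and Socs3 were lower, 2 of 6 members, against 7.45% of the 470 genes in that direction. Non-overlapping groups with the antibiotic libraries lower were found for Stat3 alone, against 10.9% of genes. The call on Stat3 turned on the method. DESeq2 gave an adjusted p of 0.00855 and called Stat3 alone of the members, with 3.83% of genes called in that direction. In edgeR with upper-quartile scaling the adjusted p was 0.0385, and 1.7% of genes were called lower. Limma-voom gave 0.060 and called 0 members. It called 1.06% of genes in either direction, 5 higher and 0 lower. At a threshold of 0.10, edgeR called Stat3 and 2.13% of genes as lower.

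In the test for any difference among the 3 groups, edgeR and limma-voom called 0 members and 0% of genes each, and 17% of genes had an unadjusted p under 0.05 in edgeR. Stat3 had an adjusted p of 0.176 there (unadjusted p = 0.0103). DESeq2 called 8.3% of genes and, of the members, Stat3 (adjusted p = 0.0245).

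Socs3, the feedback inhibitor, had a larger log2 fold change than Stat3 in both comparisons with control but a wide spread, and it did not pass the test. Control libraries measured 67.3, 128 and 249.97 CPM, antibiotic libraries 69.3, 11.1 and 70.2 CPM, and transfer libraries 44.2, 120.1 and 40.3 CPM. The groups overlapped, because control replicate 1 lay beside 2 antibiotic libraries and transfer replicate 2 beside control replicate 2. Antibiotic replicate 2, the library with the fewest counts, held 3 counts of Socs3, below its limit. Group means were 148 ± 93.1 CPM in control, 50.2 ± 33.9 CPM in antibiotic and 68.2 ± 45.0 CPM in transfer libraries (SD, n = 3). The log2 fold change was -1.50 ± 0.68 for antibiotic against control (SE; edgeR adjusted p = 0.212) and -1.10 ± 0.66 for transfer against control (SE; edgeR adjusted p = 0.301). Without control replicate 3 the antibiotic difference was -0.93 and without control replicate 1 it was -1.85, so its size moved with which control library was counted. For transfer against control it was -0.55 without control replicate 3 and -1.81 without transfer replicate 2.

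Sequence in front of Socs3 is shown because Stat3 dimers are known to bind the palindrome TTCNNNGAA, and because Socs3 and Stat3 were the members with an unadjusted p under 0.05 for antibiotic against control, although neither passed after adjustment. The motif was searched in the 250 bases before each start in RefSeq's promoter sequences (GRCm38.p6). The Socs3 start used there lies inside the extent that RefSeq lists for the gene, so its window is upstream of that start and not of the whole gene. Since it is its own reverse complement, 1 search covers both strands. It was found in 7.02% of 32851 such windows and in front of 1 of the 6 members, Socs3. The genes known as Stat3 targets had windows for 14 of their 17 tested members and the motif in 2, Bcl6 and Icam1. Bcl6, which encodes a transcriptional repressor, had it before 2 alternative starts, and it is shown as the target gene with the smallest p-value for antibiotic against control, with the opposite sign to Stat3. Below, 27 bases on the gene's strand are given 5′ to 3′, with the motif in capitals.
Socs3, chr11:117969503-117969529, minus strand, 154 bases before that start: aaaccagccTTCTTAGAAgggaggggg
Bcl6, first start, chr16:23988953-23988979, minus strand, 118 bases before: gcaaattagTTCTCAGAAttccagagg
Bcl6, second start, chr16:23981434-23981460, minus strand, 168 bases before: ggccgcggcTTCCTGGAAagttacttc
Bcl6, second start, chr16:23981388-23981414, minus strand, 122 bases before: gcaggagtgTTCTGTGAAatccttaga
Bcl6, second start, chr16:23981354-23981380, minus strand, 88 bases before: tcgactacgTTCCGGGAAtgagagggc
A match describes letters in the window, and binding was not measured.

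The shared receptor chain Il6st had the opposite sign to Stat3 in both comparisons with control, and it did not pass the test. It measured 354, 449.6 and 292 CPM in control libraries, 629.5, 374 and 512 CPM in antibiotic libraries and 458, 455 and 487 CPM in transfer libraries. The transfer libraries were tightly grouped, at 467 ± 17.4 CPM, and all lay above the control libraries, at 365 ± 79.3 CPM, while antibiotic libraries, at 505 ± 128 CPM, overlapped both (SD, n = 3). Antibiotic against control gave a log2 fold change of 0.47 ± 0.34 (SE; edgeR adjusted p = 0.455), and transfer against control 0.35 ± 0.34 (SE; edgeR adjusted p = 0.529). The intervals ran from -0.27 to 1.21 and from -0.39 to 1.09 and include 0 in both cases. Scaled to the spike-ins, Il6st was at -1.49 for antibiotic against control, while the panel median stood at -1.92, so Il6st lay 0.43 above it.

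Il6ra, the chain specific to interleukin-6, was near the limit in several libraries and exceeded it in 8 of 9. Its levels were 30.4, 75.5 and 40.4 CPM in control, 36.6, 40.7 and 70.2 CPM in antibiotic and 98.9, 80.1 and 77.6 CPM in transfer libraries. Every transfer library lay above every library of the other groups, the nearest being control replicate 2. The transfer mean was 85.5 ± 11.6 CPM, against 48.8 ± 23.7 CPM in control and 49.2 ± 18.3 CPM in antibiotic libraries (SD, n = 3). Differences did not pass, at 0.79 ± 0.49 on the log2 scale for transfer against control (SE; edgeR adjusted p = 0.313) and 0.77 ± 0.49 for transfer against antibiotic (SE; edgeR adjusted p = 0.993). Antibiotic against control gave 0.02 ± 0.50 (SE), with an interval from -1.05 to 1.09.

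Beside these values stands the background of the transfer comparisons. In transfer against control, edgeR called 0 of 6 members and 0% of genes, limma-voom 0 members and 0%, and DESeq2 0 members and 8.51% of genes. DESeq2 gave no adjusted p there for Il6, Il6ra and Lif, so it did not judge them. It also gave none for Il6 in antibiotic against control or for any difference among the groups. Stat3 was the member with an unadjusted p under 0.05 (0.0431) in edgeR, lower in transfer libraries, as were 7.23% of genes. Groups did not overlap for Stat3 on the lower side, against 10.6% of genes, and for Il6st and Il6ra on the higher side, 2 of 6 members against 15.7% of genes. In transfer against antibiotic, edgeR, DESeq2 and limma-voom each called 0 members and 0% of genes. Here 2.55% of genes and 0 members had an unadjusted p under 0.05 in edgeR. Il6ra was the single member with transfer libraries wholly higher, against 3.62% of genes. The antibiotic and transfer comparisons share the same 3 control libraries and are not independent.

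**Figure D2:**
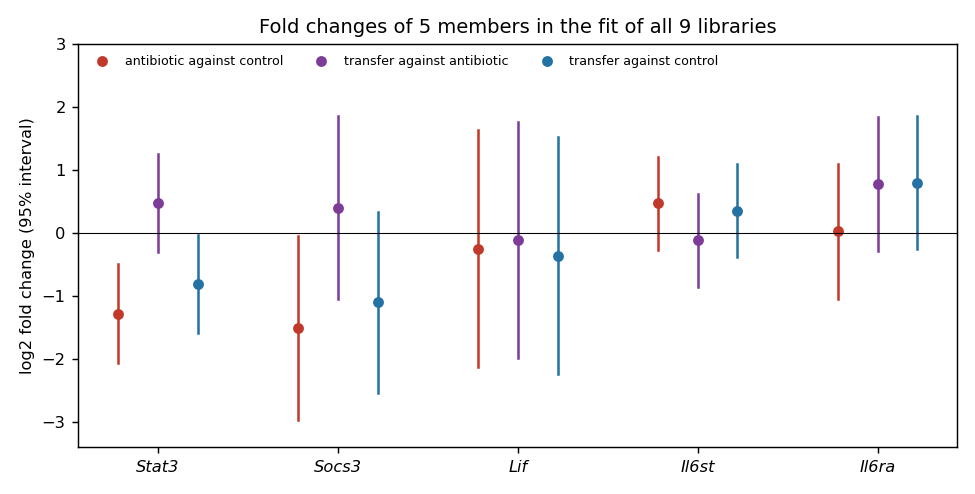
Log2 fold changes (vertical axis) of 5 members in the fit of all 9 libraries, with 95% intervals as bars, for antibiotic against control, transfer against antibiotic and transfer against control. The Stat3 interval for antibiotic against control, -2.07 to -0.49, lies wholly below 0, and the intervals of Lif are the widest; Il6 is left out because it was near the background limit.

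The ligands were at low levels. Il6 was counted 4, 21 and 6 times in control libraries, 28, 4 and 15 times in antibiotic libraries and 9, 3 and 11 times in transfer libraries. It exceeded the limit in 1 control, 2 antibiotic and 0 transfer libraries, so no fold is given, and a difference in this transcript was not detectable at this depth. Lif exceeded its limit in 6 of 9 libraries. It measured 41.3, 33.6 and 96.1 CPM in control, 34.7, 3.70 and 97.7 CPM in antibiotic and 15.6, 97.4 and 16.4 CPM in transfer libraries. Each group held 1 library near 97 CPM and others well below it, and the groups overlapped fully. The log2 fold change for antibiotic against control was -0.25 ± 0.87 (SE; edgeR adjusted p = 0.868), and for transfer against control -0.36 ± 0.87 (SE; edgeR adjusted p = 0.800). In each group the library with the most Lif was also the one with the most Socs3, namely control replicate 3, antibiotic replicate 3 and transfer replicate 2. Over the 9 libraries the log2 CPM of the pair correlated at r = 0.86, which is given as a description, since both values share a library and its scale and rest on few counts in several libraries.

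Ratios of 2 probes within a library do not depend on how libraries are scaled. The count of Stat3 over that of Il6st was 4.53, 3.28 and 5.91 in control libraries, 0.966, 2.48 and 0.871 in antibiotic libraries and 1.71, 2.75 and 1.45 in transfer libraries. All control ratios lay above all others. The mean log2 ratio differed from control by -1.80 in antibiotic and by -1.23 in transfer libraries, with group values of 2.15 ± 0.43 in control, 0.35 ± 0.83 in antibiotic and 0.92 ± 0.48 in transfer libraries (SD, n = 3). An exact permutation test over all assignments of the 9 libraries to groups gave p = 0.0357, and 0.143 after Benjamini-Hochberg adjustment over the 4 ratios, so it did not pass. When each library was left out in turn the exact p ranged from 0.00357, without antibiotic replicate 2, to 0.132, without control replicate 3, with adjusted p of 0.0143 and 0.286. Antibiotic replicate 2 had the highest ratio of its group, so leaving it out widens the gap by construction and is no support for a difference.

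The ratios of the other members did not pass either. Socs3 over Stat3 had an exact permutation p of 0.971, with mean log2 ratios of -3.63 ± 0.90 in control, -4.06 ± 2.02 in antibiotic and -3.88 ± 0.44 in transfer libraries (SD, n = 3). A difference in the amount of inhibitor per Stat3 transcript was thus not resolved, the spread in the antibiotic group being over 1 on the log2 scale. Il6ra over Il6st was highest in transfer libraries, at -2.46 ± 0.22, against -2.99 ± 0.50 in control and -3.39 ± 0.64 in antibiotic libraries on the log2 scale (SD, n = 3; exact permutation p = 0.125, adjusted p = 0.243).

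**Figure D3:**
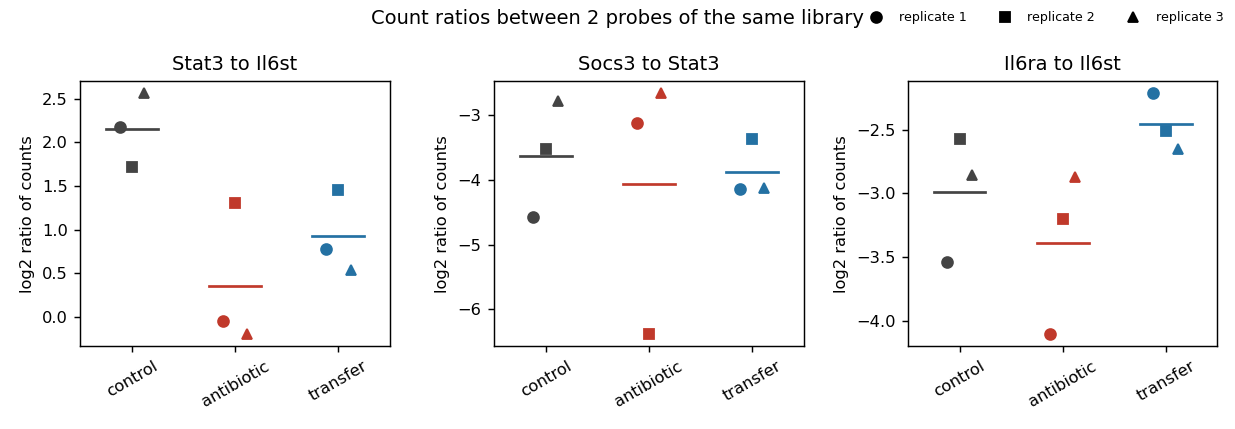
Log2 ratios of the counts of 2 probes (vertical axes) in 3 control, 3 antibiotic and 3 transfer libraries, with group means as lines and replicate numbers as shapes. For Stat3 over Il6st the 3 control libraries lie above the 6 others; for Socs3 over Stat3 the groups overlap and antibiotic replicate 2, with 3 counts of Socs3, lies lowest.

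Cell type markers also differed in range between the groups. Summed T cell markers ran from 5128 to 23429 CPM in control, from 27042 to 30334 CPM in antibiotic and from 21837 to 36396 CPM in transfer libraries, with 13 of 13 listed markers on the panel. Summed B cell markers ran from 2034 to 5590, from 7453 to 9491 and from 5850 to 10363 CPM in the same order. The sum of the 4 epithelial markers, Pigr, Ccl25, Il18 and Defb1, overlapped between groups, at 59043 to 99366 CPM in control, 66840 to 96795 CPM in antibiotic and 39192 to 89204 CPM in transfer libraries. Macrophage and granulocyte markers, 10 of 12 on the panel, summed to 577 to 698 CPM in control, 399 to 566 CPM in antibiotic and 428 to 531 CPM in transfer libraries. All control libraries thus lay above all others on this sum, as they did for Stat3, though the nearest values were 577 and 566 CPM. The sum rested on few genes. Itgam alone ran from 168 to 435 CPM, and between 1 and 7 of the 10 markers exceeded the limit in a library. Fcgr1 and Cd163 exceeded it in 0 libraries. Endothelial and stromal markers, 4 of 6 on the panel, summed to 248 to 526 CPM in control, 448 to 743 CPM in antibiotic and 547 to 827 CPM in transfer libraries, with Cdh5 above the limit in 0 libraries. Within it Pecam1 alone ran from 144 to 734 CPM, and Vcam1 exceeded the limit in 4 libraries. On this sum and on the B cell sum the transfer libraries lay wholly above the control libraries, as they did for Il6st and Il6ra. In bulk RNA, fewer cells of a type and less RNA per cell cannot be told apart.

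Relative to the summed epithelial markers of the same library, Stat3 counts came to 2.72%, 2.02% and 1.74% in control libraries, 0.832%, 0.955% and 0.667% in antibiotic libraries and 1.998%, 1.402% and 1.57% in transfer libraries. On this scale too all antibiotic libraries lay below all control libraries, while transfer libraries lay above every antibiotic library and overlapped the control range. The denominator itself differed, as transfer replicates 1 and 3 had epithelial sums of 39192 and 44992.5 CPM, below every antibiotic library. In CPM, Stat3 overlapped between antibiotic and transfer libraries. The epithelial, T cell and housekeeping denominators were all chosen after the data were seen and carry no test. Over summed T cell markers, Stat3 was 1.65% to 3.22% in antibiotic and 1.94% to 5.73% in transfer libraries, which overlapped. The control libraries were higher there, from 6.84% to 33.7%. Against the summed housekeeping counts, transfer replicate 2 reached 0.697% and overlapped the control libraries, which ran from 0.678% to 0.931%, whereas the antibiotic libraries, from 0.278% to 0.427%, stayed below. Il6st over summed T cell markers was 1.51%, 2.74% and 5.70% in control, 2.08%, 1.30% and 1.89% in antibiotic and 1.30%, 2.08% and 1.34% in transfer libraries, with overlap between groups. Over summed epithelial markers Il6st was 0.294% to 0.617% in control, 0.386% to 0.861% in antibiotic and 0.510% to 1.17% in transfer libraries, which also overlapped. Over housekeeping counts its transfer libraries, from 0.254% to 0.325%, lay above all control libraries, from 0.120% to 0.207%, and antibiotic libraries, from 0.172% to 0.395%, overlapped both. The part of other cell types' RNA in the levels of Stat3 and Il6st was not tested.

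**Figure D4:**
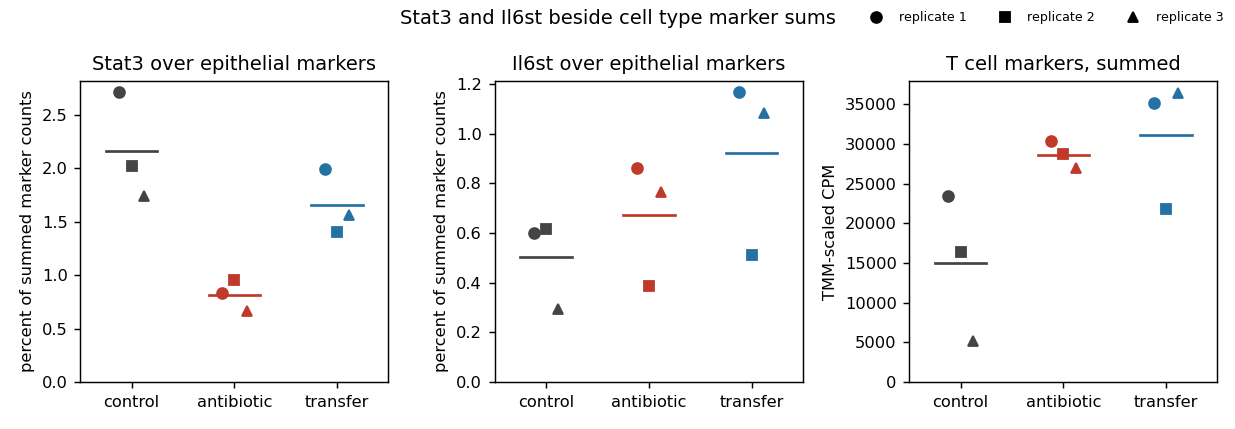
Counts of Stat3 (left) and Il6st (middle) as percent of the summed counts of 4 epithelial markers, and summed T cell markers in TMM-scaled CPM (right), in 9 libraries with group means as lines and replicate numbers as shapes. Stat3 over epithelial markers is 0.667% to 0.955% in antibiotic libraries and 1.402% to 2.72% in the others. Transfer replicates 1 and 3 have the lowest epithelial sums of the 9 libraries, which raises their percentages. Control replicate 3 has the lowest T cell sum, 5128 CPM.

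The rest of the pathway was read from 6 lists with 75 genes, of which 46 were on the panel and 41 were tested. In every comparison 0 of these 41 passed edgeR. At an unadjusted p under 0.05, 2 were higher and 2 lower for antibiotic against control, beside 14.3% of all genes tested higher and 7.45% lower. For transfer against antibiotic 1 was higher and 0 lower, beside 1.28% of genes in each direction, and for transfer against control 2 were higher and 1 lower, beside 15.1% and 7.23%. For antibiotic against control 23 had a positive and 18 a negative log2 fold change, with a median of 0.10, beside 239 positive of 470 and a median of 0.03 over all genes. For transfer against antibiotic the split was 20 to 21 with a median of -0.01, beside -0.02 over all genes, and for transfer against control 21 to 20 with a median of 0.00, beside 0.08.

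Of the 6 other STAT factors 0 passed. For antibiotic against control 5 of 6 had a negative log2 fold change, with a median of -0.56. Stat2, a factor of type I interferon signalling, measured 304, 388 and 496 CPM in control, 104, 107 and 111 CPM in antibiotic and 143, 338 and 179 CPM in transfer libraries (adjusted p = 0.0614 with edgeR for antibiotic against control). Its antibiotic libraries were all below the other groups, and transfer replicate 2 was its highest transfer library, as it was for Stat3. Stat5a, a factor of growth hormone and interleukin-2 signalling, averaged 64.3 ± 10.6 CPM in control, 25.2 ± 22.998 CPM in antibiotic and 55.1 ± 27.7 CPM in transfer libraries (SD, n = 3), and exceeded the limit in 1 antibiotic library. Stat4, the factor of interleukin-12 signalling in lymphocytes, was the STAT with the opposite sign, at 447 ± 205 CPM in control, 922 ± 473 CPM in antibiotic and 901 ± 196 CPM in transfer libraries (SD, n = 3; adjusted p = 0.184 with edgeR for antibiotic against control).

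Of 29 genes listed as known Stat3 targets, 17 were on the panel and tested. By sign, 10 of these were higher and 7 lower in antibiotic libraries, with a median log2 fold change of 0.13. The 17 tested genes thus did not all share the sign of Stat3 in that comparison. Socs3, also a known target, is counted with the members and not in this list, and was at -1.50. Cell type markers differed between the groups as well, and their part in these signs was not tested. Some of these signs rest on counts near background, as C3 and Maf exceeded the limit in 3 of 9 libraries each, Cebpb in 5 and S100a9 in 6. Bcl6, whose upstream motifs are given above, measured 437, 403 and 323 CPM in control, 1076, 806 and 783 CPM in antibiotic and 546, 637 and 831 CPM in transfer libraries. All antibiotic and all transfer libraries were above all control libraries, with a log2 fold change of 1.20 ± 0.33 for antibiotic against control (SE; edgeR adjusted p = 0.080). Transfer libraries lay wholly above control libraries for 15.7% of genes. For antibiotic against control 14.3% of genes were higher at an unadjusted p under 0.05 in edgeR, as Bcl6 was. Il4ra, the interleukin-4 receptor chain, measured 905 ± 335 CPM in control, 518 ± 173 CPM in antibiotic and 442 ± 195 CPM in transfer libraries (SD, n = 3; edgeR adjusted p = 0.271 for antibiotic and 0.208 for transfer against control). C3, the central complement component, exceeded the limit in 2 control, 0 antibiotic and 1 transfer libraries, so no fold is given.

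The Janus kinases and phosphatases on the panel, 6 genes, had a median log2 fold change of 0.23 for antibiotic and 0.13 for transfer against control. Ptpn2, a phosphatase that acts on STAT proteins and Janus kinases, averaged 1134 ± 188 CPM in control, 1407 ± 310 CPM in antibiotic and 1044 ± 172 CPM in transfer libraries (SD, n = 3). The others with the smallest p of that list were Ptpn6, a phosphatase of blood cells, at 965 ± 551, 1178 ± 442 and 1456 ± 409 CPM, and Jak3, the kinase of the common gamma chain, at 39.7 ± 14.5, 32.8 ± 11.8 and 50.4 ± 3.07 CPM in the same order. Of the remaining gp130 family 3 genes were tested. Ebi3, a subunit of interleukin-27 and interleukin-35, averaged 77.7 ± 49.8, 76.3 ± 38.9 and 74.7 ± 18.0 CPM, and Il27ra, a receptor that pairs with gp130, 46.7 ± 46.4, 51.6 ± 30.5 and 68.3 ± 24.5 CPM in control, antibiotic and transfer libraries. Il27 exceeded the limit in 1 library of each group. Cish, a SOCS family inhibitor, was the 1 tested gene of the other inhibitors and averaged 31.5 ± 21.5, 30.8 ± 12.7 and 51.6 ± 26.7 CPM, with 1, 1 and 3 libraries above the limit.

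Of 15 listed genes for cytokines that use Stat3 without gp130 and for their receptors, 11 were on the panel and 8 were tested. By sign 6 of 8 were higher in antibiotic libraries and 6 of 8 in transfer libraries, with medians of 0.56 and 0.47 against control. Among the 8 are Il21 and Il23r, which exceeded the limit in 3 and 5 of 9 libraries. Il22, an epithelial repair cytokine made by lymphocytes, averaged 30.8 ± 11.1 CPM in control, 59.6 ± 33.6 CPM in antibiotic and 71.5 ± 44.1 CPM in transfer libraries (SD, n = 3), with transfer libraries all above control libraries and antibiotic libraries overlapping both. Il22ra2, a soluble receptor that neutralises interleukin-22, averaged 174 ± 115, 354 ± 34.3 and 257 ± 77.8 CPM in the same order. Il21r, the interleukin-21 receptor of lymphocytes, averaged 60.3 ± 47.7, 62.4 ± 20.8 and 128 ± 55.3 CPM. None of these 3 genes passed edgeR in any comparison, the smallest adjusted p being 0.234, for Il22 in transfer against control.

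**Figure D5:**
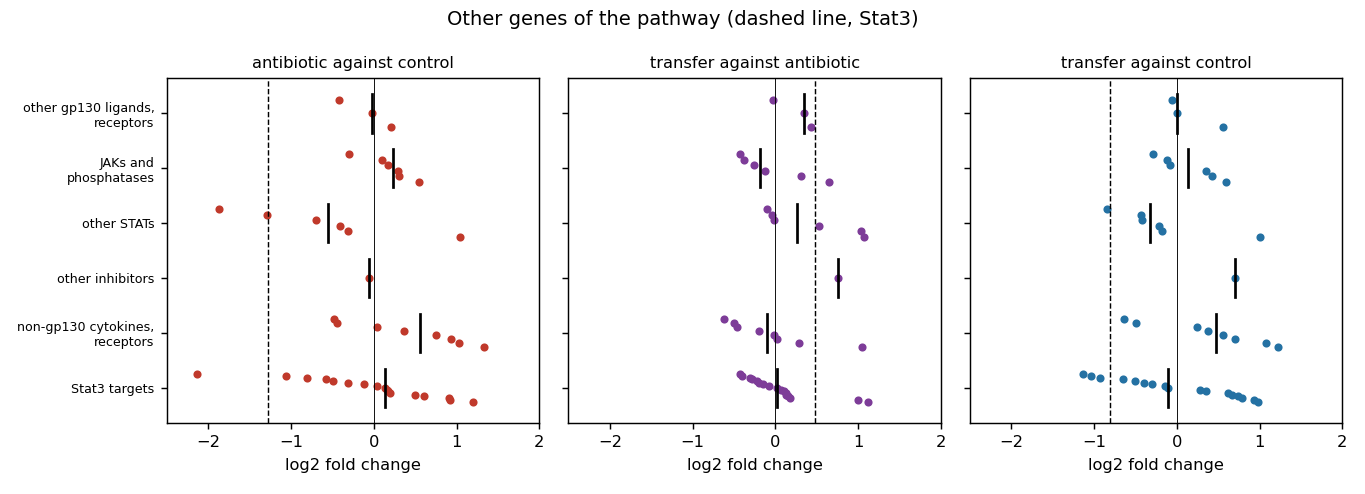
Log2 fold changes (horizontal axes) of the 41 tested genes of 6 pathway lists in the 3 comparisons; each point is a gene, black bars are list medians, and the dashed line marks Stat3. For antibiotic against control the Stat3 targets spread to both sides of 0 with a median of 0.13, while 5 of 6 other STATs lie below 0.

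The panel genes with the pattern most like Stat3 over the 9 libraries, by Pearson correlation of log2 CPM, were Irf7 (r = 0.957), a transcription factor of the interferon response, Xbp1 (r = 0.937), a factor of the unfolded protein response, and Map4k4 (r = 0.932), a stress kinase. Irf7 also ranked first by Spearman correlation, without control replicate 3 and with housekeeping scaling, while Xbp1 and Map4k4 each left the first 3 places in at least 1 of these. For Il6st they were Ccr6 (r = 0.887), a chemokine receptor of lymphocytes, Il12a (r = 0.848), a subunit of interleukin-12, and Tagap (r = 0.841), a T cell activation gene. Ccr6 ranked first in the same alternatives, while Il12a left the first 3 places in all of them, at ranks 20, 6 and 4, and Tagap in 2 of them, at rank 9 in each. These values describe 9 libraries that share their scale and their group structure.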

How the data were processed

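Total RNA was extracted with TRIzol and RNeasy columns and hybridised to nCounter capture and reporter probes, per the labels' protocols. The authors deposited whole-number counts per probe for each library, with 547 endogenous, 14 housekeeping, 8 negative-control and 6 positive spike-in probes, per the file headers; counting software is not given in the sources used here. The authors also deposited a normalised signal for the endogenous genes. From the values, it equals the counts times a factor set by the library's mean housekeeping count.

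Counts were tested with edgeR 4.0.16 (glmQLFit, glmQLFTest) in R 4.3.3 on 470 genes above the limit in at least 3 libraries, with TMM scaling, all 9 libraries in 1 fit (6 residual degrees of freedom), Benjamini-Hochberg adjustment over these genes and a threshold of 0.05. DESeq2 1.42.0, limma-voom (limma 3.58.1) and the alternatives of other scalings and filters, counts less background, fits of 2 groups, a replicate block and leaving out each library were also run. Ratios were tested by exact permutation of libraries, two-sided by their F statistic, with adjustment over 4 ratios, of which 1 is not reported here; 3 libraries against 3 alone cannot give an exact p under 0.10. Every pair of libraries in a group differed by more than sampling noise (lowest chi-square 6.75 per degree of freedom). All 6 members were named, with the 3 smallest p of each pathway list and the 3 genes most like Stat3 and Il6st. Members and lists were chosen with earlier results of these data known. Upstream sequences are RefSeq's (GRCm38.p6), matched by symbol for 6 of 6 members.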

Additional observations from a re-analysis of the deposited data

How the results depend on the processing

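No member passed in the edgeR fit, and the calls that depended on method concerned Stat3 alone. For antibiotic against control 1 member, Stat3, was called with DESeq2, 1 with upper-quartile scaling and 1 at an adjusted p under 0.10, and DESeq2 called 1, Stat3, for any difference among the groups. The Stat3 log2 fold change for antibiotic against control was negative in all 23 alternatives, from -3.46 with spike-in scaling to -1.03 with housekeeping scaling, with adjusted p from 0.00855 to 0.266. That of Socs3 was negative in all 23, with adjusted p from 0.0856 to 0.541. Over the panel, genes called for antibiotic against control went from 0 with edgeR to 51 with DESeq2 (33 higher and 18 lower), 12 with upper-quartile scaling (4 higher and 8 lower), 5 with limma-voom, 8 with the stricter filter, 2 with spike-in scaling, 23 when control replicate 1 was left out, 9 when control replicate 3 was and 1 when antibiotic replicate 3 was. For transfer against control they went from 0 to 40 with DESeq2, 1 without control replicate 1 and 2 without control replicate 3. For any difference among the groups they went from 0 to 39 with DESeq2, 1 without control replicate 1 and 2 without control replicate 3.

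Spike-in scaling moved the panel median for antibiotic against control to -1.92 and for transfer against antibiotic to 2.03, and housekeeping scaling moved it to 0.31 and 0.07. Relative to the panel median, spike-in scaling left Stat3 at -1.54 and Il6st at 0.43 for antibiotic against control. Several log2 fold changes, of which 0 passed, changed sign. For antibiotic against control, Il6st was -1.49 with spike-in scaling. Il6ra was -0.028 with DESeq2, -0.14 with upper-quartile scaling, -0.031 with DESeq2 size factors, -1.67 with spike-in scaling, -0.075 with background subtracted and -0.022 with the 2 groups alone, and from -0.35 to 0.49 when each library was left out. Lif was 0.14 with either housekeeping mean and from -1.43 to 0.34 when each library was left out. For transfer against antibiotic, Il6st was 1.88 with spike-in scaling, 0.075 with the deposited signal and from -0.29 to 0.072 when each library was left out. Lif was 1.08 with spike-in scaling, 0.33 with the deposited signal and from -1.56 to 1.07 when each library was left out. Socs3 ranged from -0.31 without transfer replicate 2 to 0.70 without antibiotic replicate 3. For transfer against control, Lif ranged from -1.81 to 0.20. The cause of these reversals was not tested. The exact permutation p of Stat3 over Il6st ranged from 0.00357 to 0.132 when each library was left out.

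With the replicate block, Lif for transfer against antibiotic was 0.055, and 0 members and 0 genes were called in any comparison. Replicate numbers were given in accession order. Deviations of same-numbered libraries from their group means correlated from -0.488 to 0.337. With 3 libraries per group this cannot show whether libraries were paired, so pairing is unknown. With a median 95% half-width of 1.07 on the log2 scale for antibiotic against control, smaller differences were mostly not detectable, and Il6 and Lif rested on few counts.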
